A study of Mus musculus with 16 samples.

Results

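The 5 genes described here are Cpm, Vat1l, Sfxn3, Slc6a15 and Chst15, measured in mouse neural crest stem cells before and after priming. They were chosen by their signal on these arrays, which was higher in glia-primed or neuron-primed samples than in unprimed and mesenchyme-primed ones, so that pattern is given as a description, with no test. All probe sets that the platform annotation assigns to only 1 of these genes were taken, which gave 7 probe sets for the 5 genes, of 45101 probe sets and 18194 genes measured. Cpm and Chst15 each had 2 probe sets and the other genes 1. The brighter probe set, by its mean, stands for the gene.

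The study compared migratory neural crest stem cells with the same kind of cell after exposure to growth factors that direct differentiation. Each of 4 groups had 4 arrays: unprimed cells (titled NCSCs), and cells primed to glia (Glia), to neurons (Autonomic) and to mesenchyme (Mesenchymal). The material was primary mouse cells kept in medium for neural crest stem cells. The sources used here do not give the strain, the age of the embryos, the growth factors or the length of exposure, and the treatment text of the labels is the same for all 16 samples, unprimed ones included. Nothing in the labels says that replicates came from separate cultures or animals, so p-values measure the spread between these samples, which may be technical.

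The neural crest is a migratory cell population of the vertebrate embryo that gives rise to peripheral glia, autonomic and sensory neurons, and, in the head, to bone, cartilage and smooth muscle. The 5 genes belong to different families. Cpm encodes carboxypeptidase M, a membrane-anchored enzyme that trims arginine or lysine from the end of peptides such as kinins and epidermal growth factor. Chst15 encodes a Golgi sulfotransferase that adds a further sulfate to chondroitin sulfate, the sugar chain of proteoglycans that border the migration paths of crest cells. Slc6a15 encodes a sodium-coupled carrier of branched-chain amino acids and proline, best known from neurons, and Sfxn3 a sideroflexin, a carrier of the mitochondrial inner membrane that can transport serine. Vat1l encodes a relative of the membrane protein Vat1 in the quinone oxidoreductase family.

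The start regions of the genes are shown because Cpm and Chst15 had the most similar pattern over the arrays and Vat1l a different one. RefSeq (GRCm38.p6) gave windows for 4 of the 5 genes, 2 of them for Chst15, and none was printed for Slc6a15. Each is the 250 bases before an annotated start, 5′ to 3′ on the strand of the gene, with matches to a searched motif in capitals.
Cpm, chr10:117629250-117629499, plus strand: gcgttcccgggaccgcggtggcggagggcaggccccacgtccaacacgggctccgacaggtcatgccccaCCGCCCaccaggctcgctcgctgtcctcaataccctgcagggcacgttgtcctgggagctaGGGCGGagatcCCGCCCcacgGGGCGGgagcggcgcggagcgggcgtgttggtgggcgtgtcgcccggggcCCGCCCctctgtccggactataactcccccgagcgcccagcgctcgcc
Chst15, chr7:132317027-132317276, minus strand: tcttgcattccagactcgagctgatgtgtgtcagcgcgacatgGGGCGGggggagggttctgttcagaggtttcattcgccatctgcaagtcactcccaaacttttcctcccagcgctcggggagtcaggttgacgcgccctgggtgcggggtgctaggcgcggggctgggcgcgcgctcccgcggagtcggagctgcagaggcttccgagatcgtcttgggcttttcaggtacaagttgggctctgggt
Sfxn3, chr19:45047326-45047575, plus strand: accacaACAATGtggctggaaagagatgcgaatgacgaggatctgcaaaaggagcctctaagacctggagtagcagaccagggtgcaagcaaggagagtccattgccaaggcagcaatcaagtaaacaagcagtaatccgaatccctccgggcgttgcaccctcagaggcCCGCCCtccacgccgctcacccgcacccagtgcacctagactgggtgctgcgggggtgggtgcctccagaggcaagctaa
Vat1l, chr8:114205390-114205639, plus strand: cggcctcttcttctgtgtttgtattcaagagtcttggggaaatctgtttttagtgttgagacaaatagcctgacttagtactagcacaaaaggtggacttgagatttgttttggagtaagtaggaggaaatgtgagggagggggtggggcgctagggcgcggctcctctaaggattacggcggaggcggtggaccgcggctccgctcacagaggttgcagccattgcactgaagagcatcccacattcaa

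In the sequences above, capitals mark GGGCGG, the GC box, or its reverse complement CCGCCC, and in Sfxn3 also ACAATG. The window of Cpm held 5 GC boxes, those of Chst15 and Sfxn3 held 1 each, and that of Vat1l had no match. A GC box occurs in 32.7% of 32851 windows of this length and ACAATG in 10.7%. The other Chst15 window, at chr7:132317229-132317478, also held 1 GC box. G and C made up 74.4% of the Cpm window, 62.8% of the Chst15 window shown, 58.4% of that of Sfxn3 and 51.6% of that of Vat1l, against a median of 52.4%.

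In all, 12 motifs were searched on both strands. They were the E-box CAGCTG, the cyclic AMP element TGACGTCA, the AP-1 motif TGANTCA, the SMAD motifs GTCTAGAC (a palindrome) and GGCGCC (GC-rich), the SOX motifs ACAAAG (as for Sox10) and ACAATG (a variant), the YY1 motif CCATNTT, the homeodomain motif TAATTA, the TATA box TATAAA, the CCAAT box and the GC box GGGCGG. The 10 motifs without a match in these windows occur in 0.2% to 33.8% of all windows. A match is a description of the letters and not of a bound site, and a missing match says only that these letters are not in the window.

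Values are log2 of the deposited intensity, and a difference of 1 is a doubling of signal. The median probe set of an array lay between 3.05 and 3.15, and a probe set below it may hold little more than background. Levels of different probe sets are not compared, because probes differ in their response. In these bulk samples, fewer cells of a type and less RNA per cell cannot be told apart. The 7 measured neural crest markers were on average above the array median in all groups, and 5 to 6 of 8 autonomic neuron markers were, with Phox2a and Th at or below it in every group. Of 8 neural tube markers, 6 were above the median on average in every group, all but Nkx2-2 and Olig2. Schwann cell markers above the median numbered 3 to 5 of 7 by group, skeletal muscle markers 4 to 5 of 8, epithelial markers 3 to 4 of 8, endothelial markers 0 to 2 of 8 and blood markers 1 to 2 of 7.

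Some arrays stood apart. Neuron-primed replicate 1 had a mean crest marker level of 4.78, against 7.02 to 7.22 in the other neuron-primed arrays and 6.46 to 7.60 in the unprimed ones. Its mean level of 8 neural tube markers was 6.18, and that of unprimed replicate 4 was 6.84, against 3.33 to 5.45 in the other 14 arrays. On the first principal component, which held 14.4% of the variance, the score of neuron-primed replicate 1 was -39.7, within the unprimed range of -49.6 to -21.2, whereas the other neuron-primed arrays scored 28.9 to 57.3. Many of the differences, though not all, are also given without 1 of these 2 arrays. For Gapdh, a control whose 3' over 5' signal reflects RNA quality and labelling, that log2 ratio was 2.35 ± 0.19 (SD, n = 4) in unprimed arrays and 2.85 to 2.96 in the means of the primed groups.

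Of the 5 genes, Cpm had the greatest contrast between the neural and the other groups. Its main probe set (1453009_at) read 2.30, 1.62, 2.48 and 1.98 in the 4 unprimed arrays, below the array median in each of them. Glia-primed arrays read 6.28, 6.18, 5.88 and 5.73, and neuron-primed arrays 6.07, 5.05, 6.59 and 5.91. Mesenchyme-primed arrays read 3.45, 1.42, 2.61 and 2.15, overlapping the unprimed arrays and lying far below every glia- or neuron-primed one. Unprimed cells had a mean of 2.10 ± 0.38 and mesenchyme-primed cells one of 2.41 ± 0.85 (SD, n = 4 each), levels at which on average 28.4% and 33.2% of the probe sets of an array were dimmer. Glia-primed cells averaged 6.02 ± 0.25 and neuron-primed cells 5.90 ± 0.64, with 80.8% and 79.4% of probe sets dimmer.

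The order of Cpm levels was therefore glia-primed, neuron-primed, mesenchyme-primed and unprimed, with no difference beyond the spread of arrays within the upper pair or within the lower pair. Cpm was higher than unprimed by 3.92 (SE 0.39) in glia-primed and by 3.81 (SE 0.39) in neuron-primed arrays. Glia-primed arrays lay wholly above unprimed ones in 3.02% of all genes and neuron-primed arrays in 2.29%. The Cpm values rest on an unprimed level below the array median, so their size is rough, and with 16 added to each intensity before the log they fell to 1.99 and 1.92. In 15 of 18194 genes (0.0824%) all 8 glia- and neuron-primed arrays lay above all 8 others, and Cpm, chosen for this pattern, was among them. Without neuron-primed replicate 1 the neuron-primed difference was 3.75, and without unprimed replicate 4 it was 3.77.

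The second Cpm probe set (1429413_at) was dimmer, and its arrays also fell into a higher and a lower set. It read 2.28, 3.10, 2.22 and 2.85 in unprimed and 2.94, 2.22, 2.29 and 1.77 in mesenchyme-primed arrays, against 3.36, 3.63, 3.67 and 3.54 in glia-primed and 3.18, 5.07, 5.12 and 4.55 in neuron-primed ones. All 8 neural arrays were above all 8 others, though by little, and neuron-primed replicate 1 was lowest of the 8. The differences from unprimed were 0.94 in glia-primed and 1.87 in neuron-primed arrays, smaller than those of the first probe set. The probe sets disagreed on the order of the neural groups: glia-primed minus neuron-primed was -0.93 here and 0.11 for the main probe set. They also disagreed on the lower pair, where mesenchyme-primed minus unprimed was -0.31 here and 0.31 for the main probe set.

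Chst15 followed Cpm across the arrays more closely than any other pair of the 5 genes, with smaller differences. Its main probe set (1452092_at) read 5.80, 4.68, 4.30 and 4.35 in unprimed and 4.45, 2.86, 4.43 and 4.66 in mesenchyme-primed arrays. It read 6.66, 6.85, 6.82 and 5.88 in glia-primed and 6.04, 5.42, 6.58 and 6.25 in neuron-primed arrays. Glia-primed arrays did not overlap the unprimed ones, although glia-primed replicate 4 exceeded unprimed replicate 1 only slightly, whereas neuron-primed replicate 2 lay below that unprimed array. Unprimed cells already had Chst15 signal above the array median in 4 of 4 arrays, with a mean of 4.78 ± 0.70 (SD, n = 4).

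Chst15 averaged 6.55 ± 0.46 in glia-primed and 6.07 ± 0.49 in neuron-primed arrays, and 4.10 ± 0.83 after priming to mesenchyme (SD, n = 4 each). Both neural groups lay wholly above the mesenchyme-primed arrays, as did each of them in 2.09% of all genes. Within the neural pair, and between unprimed and mesenchyme-primed arrays, neighbours in this order overlapped. The difference from unprimed was 1.77 (SE 0.43) in glia-primed and 1.29 (SE 0.43) in neuron-primed arrays. Without unprimed replicate 4 they were 1.63 and 1.15, and without neuron-primed replicate 1 the second was 1.3. The second Chst15 probe set (1426514_at) did not follow this pattern. It lay at or below the array median in 15 of 16 arrays, the exception being glia-primed replicate 3 at 3.24, and differed from unprimed by 0.05 and -0.20 in the glia-primed and neuron-primed arrays. Averaging both probe sets gave 0.91 and 0.55.

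Sfxn3 had its highest signal in neuron-primed cells, and its glia-primed arrays were the most scattered of its 4 groups. Probe set 1417893_at read 2.61, 2.23, 2.87 and 3.95 in unprimed arrays and 5.10, 5.84, 6.56 and 3.66 in glia-primed ones. It read 5.63, 7.43, 7.52 and 6.32 in neuron-primed and 3.00, 4.57, 4.03 and 4.29 in mesenchyme-primed arrays. Neuron-primed arrays were all above the unprimed and the mesenchyme-primed ones, while glia-primed replicate 4 fell within the range of both. Means were 2.92 ± 0.74 in unprimed, 3.97 ± 0.69 in mesenchyme-primed, 5.29 ± 1.24 in glia-primed and 6.72 ± 0.91 in neuron-primed arrays (SD, n = 4 each), and each group overlapped its neighbour in this order. The unprimed mean was -0.16 from the array median, with 1 of 4 arrays above it.

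The Sfxn3 difference from unprimed was 2.38 (SE 0.60) in glia-primed and 3.81 (SE 0.60) in neuron-primed arrays. The array that raised the unprimed mean was replicate 4, and without it the differences were 2.72 and 4.15. Without neuron-primed replicate 1, the lowest of its group, the neuron-primed difference was 4.17. With 16 added before the log, the differences were 1.28 and 2.36.

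Slc6a15 had the opposite order, with its highest signal in glia-primed cells. Probe set 1426712_at read 2.63, 2.04, 3.68 and 2.72 in unprimed and 6.82, 7.01, 7.81 and 6.18 in glia-primed arrays. It read 5.87, 5.29, 4.26 and 4.80 in neuron-primed and 3.54, 5.34, 3.23 and 5.40 in mesenchyme-primed arrays. Glia-primed arrays were above all 12 others and neuron-primed arrays above all unprimed ones, but the mesenchyme-primed arrays were split, with replicates 2 and 4 inside the neuron-primed range and the other 2 inside the unprimed range. Means were 6.96 ± 0.67, 5.05 ± 0.69, 4.38 ± 1.15 and 2.77 ± 0.68 in glia-primed, neuron-primed, mesenchyme-primed and unprimed arrays (SD, n = 4 each).

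For Slc6a15 the difference from unprimed was 4.19 (SE 0.54) in glia-primed and 2.29 (SE 0.54) in neuron-primed arrays, from an unprimed mean of -0.30 relative to the array median. Neuron-primed replicate 1, which had the lowest crest marker level, had the highest Slc6a15 of its group, and without it the second difference was 2.02. Without unprimed replicate 4 the differences were 4.17 and 2.27. With 16 added before the log the values were 2.61 and 1.11.

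Vat1l was high in only 1 of the neural groups. Probe set 1433551_at read 5.22, 5.20, 5.37 and 6.04 in unprimed arrays and 7.63, 7.41, 6.99 and 6.98 in neuron-primed ones. It read 4.12, 5.30, 3.71 and 4.84 in glia-primed and 4.66, 5.11, 3.88 and 4.75 in mesenchyme-primed arrays. Neuron-primed arrays were above all 12 others, and the glia-primed and mesenchyme-primed arrays lay together below the unprimed range, except glia-primed replicate 2, which was inside it. Means were 7.25 ± 0.32 in neuron-primed, 5.46 ± 0.39 in unprimed, 4.60 ± 0.52 in mesenchyme-primed and 4.49 ± 0.71 in glia-primed arrays (SD, n = 4 each), all above the array median.

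The Vat1l difference from unprimed was 1.79 (SE 0.34) in neuron-primed and -0.97 (SE 0.34) in glia-primed arrays. Without neuron-primed replicate 1 the first was 1.67, and without unprimed replicate 4 the values were 1.99 and -0.77. Vat1l was thus above its unprimed level in neuron-primed cells and not in glia-primed ones.

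**Figure D1:**
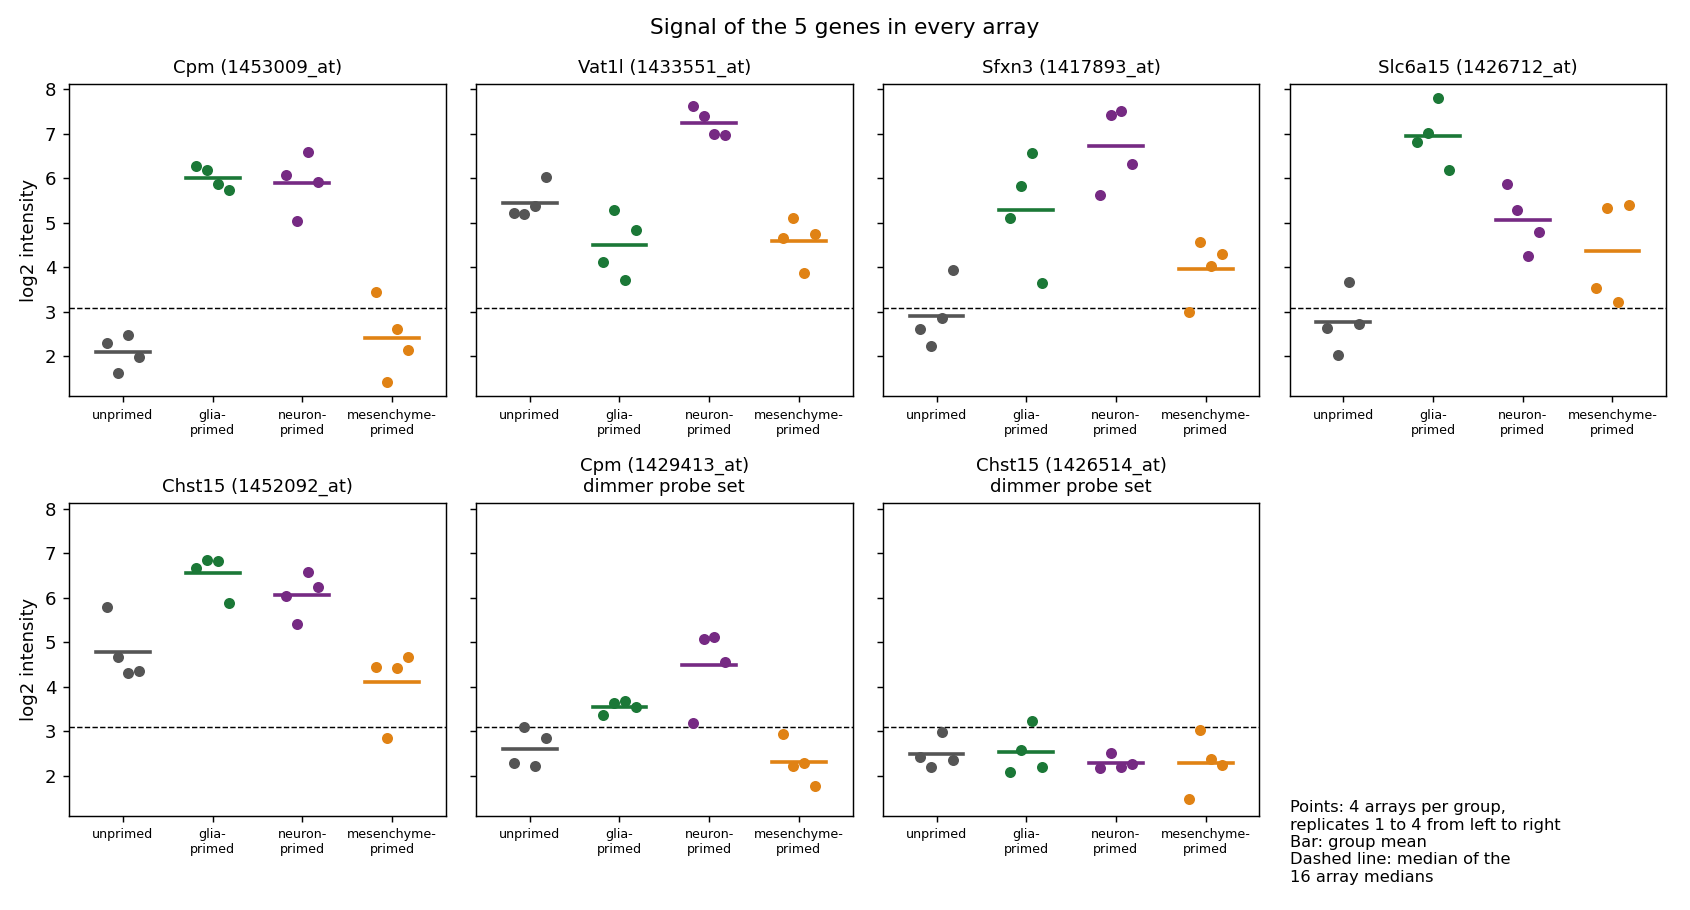
Log2 intensity (vertical axis) of the 7 probe sets in the 16 arrays by group, with points for single arrays, bars for group means and a dashed line for the median of the array medians. Cpm and Slc6a15 show unprimed arrays mostly below the dashed line, Vat1l is high in neuron-primed arrays alone, and the dimmer Chst15 probe set stays near or below the line in every group.

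The genes were chosen for lower signal in both mesenchyme-primed and unprimed arrays than in a neural group. Limma's comparison of mesenchyme-primed with unprimed arrays thus draws on values used in the choice. It is given for the 5 genes as a description. In that comparison 4 of 18194 genes (0.022%) were called at an adjusted p (Benjamini-Hochberg) under 0.05. Of the 5 genes, 0 were called by limma, and 2 had an unadjusted p under 0.05, Slc6a15 and Vat1l, as did 7.7% of all genes. The rule did not ask for a difference between these groups, but it asked for lower signal in both. Nothing is therefore read from the lack of calls.

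Slc6a15 was higher in mesenchyme-primed arrays by 1.61 (95% interval 0.45 to 2.77, limma adjusted p = 0.502). Sfxn3 differed by 1.06 (-0.23 to 2.35, limma adjusted p = 0.726) and Cpm by 0.31 (-0.52 to 1.14, limma adjusted p = 0.896). Vat1l differed by -0.86 (-1.60 to -0.12, limma adjusted p = 0.563) and Chst15 by -0.68 (-1.59 to 0.23, limma adjusted p = 0.753). The mesenchyme-primed arrays of Vat1l were all below the unprimed ones, by as little as 0.10 at the nearest pair. Such arrays lay below with no overlap, whatever the gap, in 3.29% of all genes. The intervals reached past a doubling for Slc6a15, Sfxn3 and Cpm, and past a fall of 1 for Vat1l and Chst15. Since the choice bears on these values, nothing further is read from the intervals. The Cpm difference turned to -0.04 without mesenchyme-primed replicate 1. It was -0.31 for the second Cpm probe set and 0 with the mean of both probe sets.

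The rule took genes high in either neural group, so the differences between glia-primed and neuron-primed arrays draw on values used in the choice and are given for all 5 genes as a description. Over all 18194 genes limma called 2 (0.011%), and no call is given for the 5 genes. Slc6a15 was higher in glia-primed arrays by 1.90 (SE 0.54, 95% interval 0.74 to 3.06). All 4 glia-primed arrays were above all 4 neuron-primed ones, as in 1.36% of all genes, and without neuron-primed replicate 1 the difference was 2.17. Sfxn3 differed by -1.43 (SE 0.60, -2.72 to -0.14) with overlapping arrays, and by -1.80 without neuron-primed replicate 1.

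Cpm and Chst15 differed less between the neural groups, by 0.11 (-0.72 to 0.95) and 0.48 (-0.43 to 1.39), and both intervals include changes in either direction. The Cpm value turned to -0.17 without neuron-primed replicate 2. Vat1l had -2.76 (SE 0.34), with a gap of 1.68 between the highest glia-primed and the lowest neuron-primed array. Glia-primed arrays lay below neuron-primed ones with no overlap, whatever the gap, in 1.6% of all genes.

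**Figure D2:**
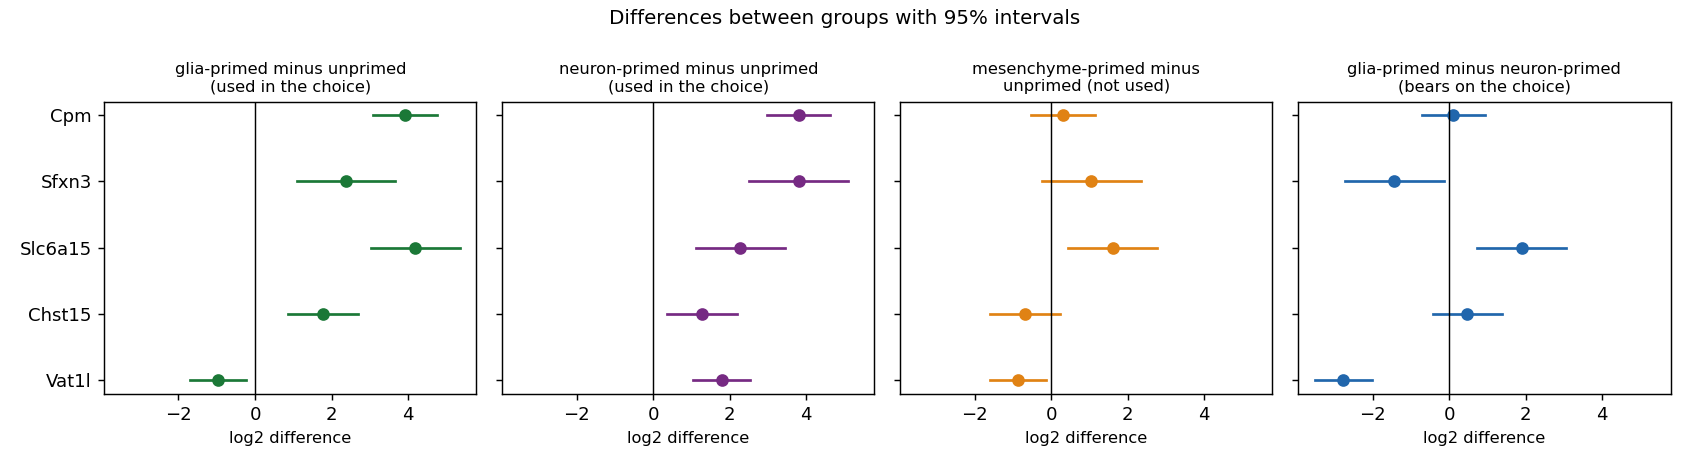
Differences of log2 intensity (horizontal axis) between groups for the 5 genes, with points for limma estimates and lines for 95% intervals, 4 arrays per group. The first 2 panels hold contrasts used to choose the genes. The third, titled as not used, compares groups the genes were chosen to be low in, so the choice bears on it. The fourth, on which the choice also bears, runs from -2.76 for Vat1l to 1.90 for Slc6a15.

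Relatives and pathway partners of the 5 genes were taken from 9 lists with 105 entries, of which 102 genes were measured. Limma called 0 of these 102 in glia-primed against unprimed arrays, where 0.511% of all genes were called and 11 of the 102 (10.8%) had an unadjusted p under 0.05, against 9.91% of all genes. It called 1, Ust, in neuron-primed against unprimed arrays (0.434% of all genes), with 14 (13.7%) at an unadjusted p under 0.05, against 9.8%. For mesenchyme-primed against unprimed it called 0 of 102, with 5 (4.9%) at an unadjusted p under 0.05, against 7.7%. For glia-primed against neuron-primed it also called 0, with 6 (5.88%), against 6.24%. A comparison of the mean of both neural groups with the mean of unprimed and mesenchyme-primed arrays was added after the data were seen. The lists were chosen with earlier results of these data known, and that comparison follows the pattern by which the 5 genes were chosen. Its p-values are therefore a description. There 0.885% of all genes were called, and 2 of the 102, Zadh2 and Hbegf, both higher, and 18 (17.6%) had an unadjusted p under 0.05, against 10.1% of all genes. The median difference of the 102 genes was 0.06 there and 0.01 over all genes. A scarcity of calls does not show that the other relatives did not change.

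Cpm acts on kinins and on epidermal growth factor, and the lists of carboxypeptidases, kinin genes and EGF ligands and receptors follow its partners. Of 8 other carboxypeptidases and 8 kinin genes, limma called 0 in any of the 5 comparisons, with medians of -0.16 and 0.04 in the added comparison. Hbegf, which encodes heparin-binding EGF-like growth factor, a membrane-anchored ligand of the EGF receptor, rose in that comparison among 9 measured genes of its list. Hbegf read 2.87, 4.16, 4.79 and 3.00 in unprimed and 5.25, 3.91, 2.50 and 4.75 in mesenchyme-primed arrays. It read 7.62, 7.22, 6.14 and 7.85 in glia-primed and 4.77, 9.43, 8.33 and 7.55 in neuron-primed arrays.

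All neural arrays except neuron-primed replicate 1 were above all others, and that array lay within the range of the unprimed ones. In the added comparison the Hbegf difference was 3.46 (SE 0.60, limma adjusted p = 0.0114), and without neuron-primed replicate 1 it was 3.92 (limma adjusted p = 0.00055). A dimmer Hbegf probe set gave 2.76. Against unprimed arrays alone, Hbegf was not called, with 3.50 in glia-primed (limma adjusted p = 0.0996) and 3.81 in neuron-primed arrays (limma adjusted p = 0.0755).

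Chst15 works on the same chains as the enzymes that build and sulfate chondroitin sulfate, of which 24 of 25 listed were measured. Their median difference in the added comparison was 0.13, and limma called 0 of 24 there. Ust, the sulfotransferase that modifies the uronic acid of the same chains, rose in neuron-primed against unprimed arrays by 2.46 (SE 0.47, limma adjusted p = 0.0333). Ust read 4.76, 5.29, 5.69 and 6.64 in neuron-primed and 2.20, 3.17, 4.02 and 3.14 in unprimed arrays, with no overlap. The call rests on a cross-matching probe set (1437293_x_at), the other probe set gave 0.27, and the call was lost in 12 of 28 alternatives, with adjusted p from 0.0151 to 0.887. Among these, it was lost without unprimed replicate 1, 2 or 4, without neuron-primed replicate 2, 3 or 4, and without mesenchyme-primed replicate 1. Of 10 proteoglycan core proteins, limma called 0 in any comparison, with a median of 0.08 in the added one.

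Vat1l has 8 listed relatives among the quinone reductases, with a median of -0.23 in the added comparison. Zadh2, which encodes a prostaglandin reductase of this family, rose there by 1.32 (SE 0.25, limma adjusted p = 0.0171). Against unprimed arrays alone, it was not called in either neural group. Zadh2 read 5.83, 6.05, 4.66 and 5.63 in glia-primed and 5.97, 5.10, 5.96 and 5.31 in neuron-primed arrays, against 3.98, 4.52, 3.93 and 5.05 in unprimed and 3.66, 3.81, 4.44 and 4.57 in mesenchyme-primed ones. Glia-primed replicate 3 lay inside the range of the unprimed arrays. Without neuron-primed replicate 1 the difference was 1.26, and without unprimed replicate 4 it was 1.43. Its glia-primed level thus lies with its neuron-primed one, which was not so for Vat1l.

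Sfxn3 has 4 listed relatives, Sfxn1, Sfxn2, Sfxn4 and Sfxn5, and limma called 0 of them in any of the 5 comparisons. In the added comparison Sfxn1 differed by 0.12, Sfxn2 by 0.07, Sfxn4 by 0.15 and Sfxn5 by -1.15. Against unprimed arrays, Sfxn4 had 1.51 in glia-primed (limma adjusted p = 0.423) and 1.68 in mesenchyme-primed arrays (limma adjusted p = 0.533), the latter above the 1.06 of Sfxn3. Sfxn5 had -1.11 in glia-primed and -0.997 in neuron-primed arrays, and the other differences of the 4 relatives from unprimed ran from -0.79 to 0.48. Among 17 measured carriers of the Slc6 family and 14 other carriers of neutral amino acids, limma called 0 in any comparison, with medians of 0.04 and 0.23 in the added one. The Slc6 carriers ranged from -0.16 to 0.92 there. Sfxn3 had 2.56 and Slc6a15 had 2.43 in the added comparison, but both were chosen by its pattern. That they exceed their relatives follows from the choice, so nothing is read from it.

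**Figure D3:**
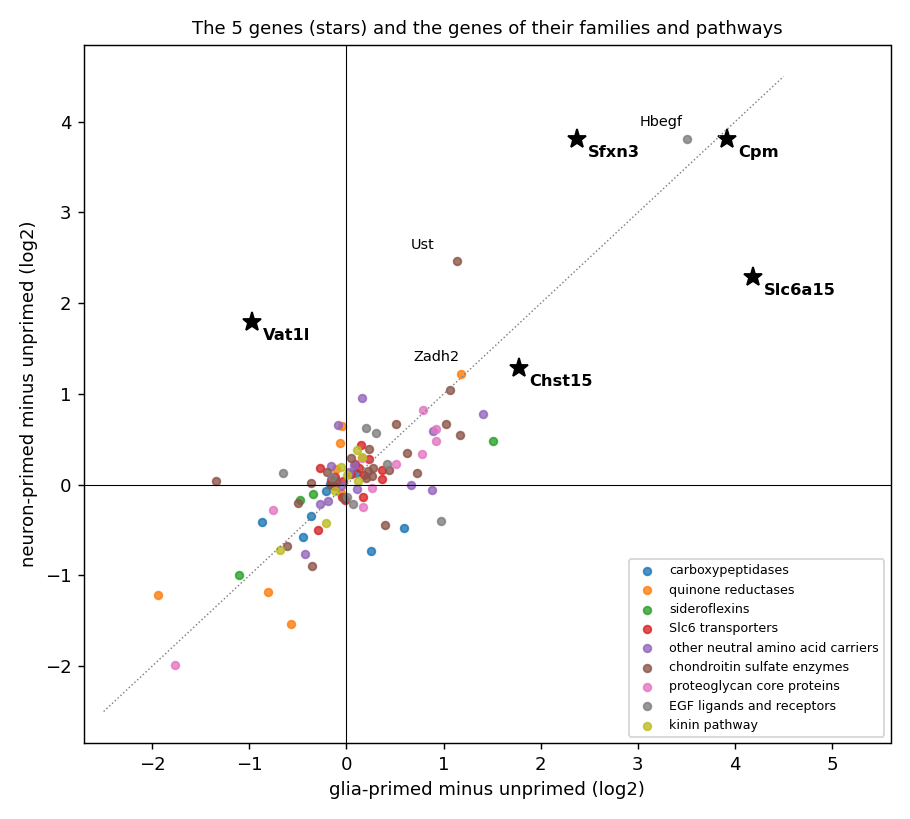
Difference from unprimed in log2 intensity in glia-primed (horizontal axis) and neuron-primed arrays (vertical axis) for the 5 genes (stars) and 102 relatives or pathway genes (dots, coloured by list), with the dotted line marking equal differences. Most dots lie near 0, and Hbegf, Ust and Zadh2 are the labelled relatives, with Hbegf at 3.50 and 3.81.

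Some markers of other cell types moved with the same arrays. The 10 mesenchyme markers had mean levels of 4.53 to 6.48 in unprimed and 5.46 to 7.08 in mesenchyme-primed arrays, and of 6.33 to 6.98 in glia-primed and 5.31 to 6.95 in neuron-primed arrays. All 10 were above the array median on average in glia-primed arrays, and 9 were so in each other group. Against unprimed, the 10 had a median difference of 1.02 in glia-primed (range -0.04 to 3.82) and 0.85 in neuron-primed arrays (-0.96 to 4.25). In mesenchyme-primed arrays the median was lower, 0.48 (-0.56 to 3.23). In the glia-primed comparison with unprimed limma called 1 of the 10, Col1a2, higher by 2.05 (adjusted p = 0.0335), and in the added comparison it called Cnn1, higher by 1.17 (adjusted p = 0.0416). It called 0 of the 10 in neuron-primed or mesenchyme-primed arrays against unprimed. Of the 7 crest markers, limma called 1, Ngfr, which fell by 1.87 in glia-primed (adjusted p = 0.0479) and by 2.75 in neuron-primed arrays (adjusted p = 0.00554). The other 6 did not pass, and the list had medians of 0.16 and -0.40, with Snai2 highest at 1.62 and 1.10. The neuron-primed values of these crest markers include replicate 1, whose crest marker level was the lowest of all arrays. Of 7 Schwann cell markers, limma called 0 in glia-primed against unprimed arrays, with a median difference of -0.02 (range -1.45 to 0.61). Of 8 autonomic neuron markers it called 0 in neuron-primed against unprimed arrays, with a median of 0.33 (range -0.45 to 0.52). The 8 neural tube markers had medians of -0.99 in glia-primed and -0.57 in neuron-primed arrays against unprimed, with 0 called. The part of all these markers in the results for the 5 genes was not tested.

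Unprimed arrays had a lower mean Gapdh ratio than each primed group, with some overlap. Single arrays ran from 2.2 to 2.58 in unprimed, 2.44 to 3.33 in glia-primed and 2.53 to 3.1 in neuron-primed cells. A fit with the ratio as a covariate was added after the data were seen. It gave glia-primed and neuron-primed differences from unprimed of 3.80 and 3.70 for Cpm, 1.85 and 1.36 for Chst15, 3.65 and 1.83 for Slc6a15, 1.68 and 3.22 for Sfxn3, and -0.54 and 2.15 for Vat1l. The mesenchyme-primed differences became 0.19 for Cpm, -0.60 for Chst15, 1.06 for Slc6a15, 0.35 for Sfxn3 and -0.43 for Vat1l. All of these values kept their direction. Those of Sfxn3, Slc6a15 and Cpm came closer to 0 in each comparison with unprimed, and Cpm moved least of these. Those of Vat1l did so in the glia-primed and mesenchyme-primed comparisons, and that of Chst15 in the mesenchyme-primed one. The other values moved away from 0.

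The genes whose pattern was most like each of the 5 were found by Pearson's r over the 16 arrays, which include the groups' common differences, and r is given as a description. Closest to Cpm were Unc5b, a netrin receptor (r = 0.89), Chst15 (0.87), Pde3b, a cyclic nucleotide phosphodiesterase (0.87), Sh3glb1 (0.87) and Gask1b (0.86). Cpm, Pde3b, Sh3glb1 and Gask1b were also among the 5 closest to Chst15 (0.83 to 0.87), with Slc44a1, a choline transporter (0.87). Unc5b, Pde3b and Sh3glb1 are among the 15 genes with all neural arrays above all others, but by very little. The lowest neural and highest other array read 6.39 and 6.34 for Unc5b, and 8.37 and 8.35 for Pde3b. They read 8.48 and 8.47 for Sh3glb1, against 5.05 and 3.45 for Cpm. Unc5b averaged 7.86 in glia-primed and 7.84 in neuron-primed arrays, against 5.18 in unprimed and 5.43 in mesenchyme-primed ones.

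The other genes had separate neighbours. Closest to Sfxn3 were Atp2a2, the calcium pump of the endoplasmic reticulum (0.85), Cnn1 (0.84), Tm4sf1 (0.83), Ndufc1 (0.83) and Myof (0.82). Closest to Slc6a15 were Mall (0.86), Wfikkn1 (0.86), Olfr75-ps1 (0.86), Ss18 (0.83) and Gm12596 (0.82). Closest to Vat1l were Plp2 (0.85), Oxr1 (0.85), Nsmce3 (0.84), AY036118 (0.84) and Heatr5a (0.83). The likeness is one of shape and not of size, since AY036118 had group means of 13.2 to 13.4 while those of Vat1l ran from 4.49 to 7.25.

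Among the 5 genes, r over the arrays ran from -0.12 (Vat1l and Slc6a15) to 0.87 (Cpm and Chst15). With the group means taken out, Cpm and Chst15 kept 0.62 and the other 9 pairs ran from -0.44 to 0.36. Mesenchyme-primed replicate 2 had the lowest value of its group for both, 1.42 for Cpm and 2.86 for Chst15. That array was also lowest of its group for Unc5b, Pde3b, Sh3glb1 and Slc44a1, but not for Gask1b. No r was computed without it. The start region of Cpm printed above holds 5 GC boxes and those of Chst15 and Sfxn3 hold 1 each. A link between GC boxes and these correlations was not tested.

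**Figure D4:**
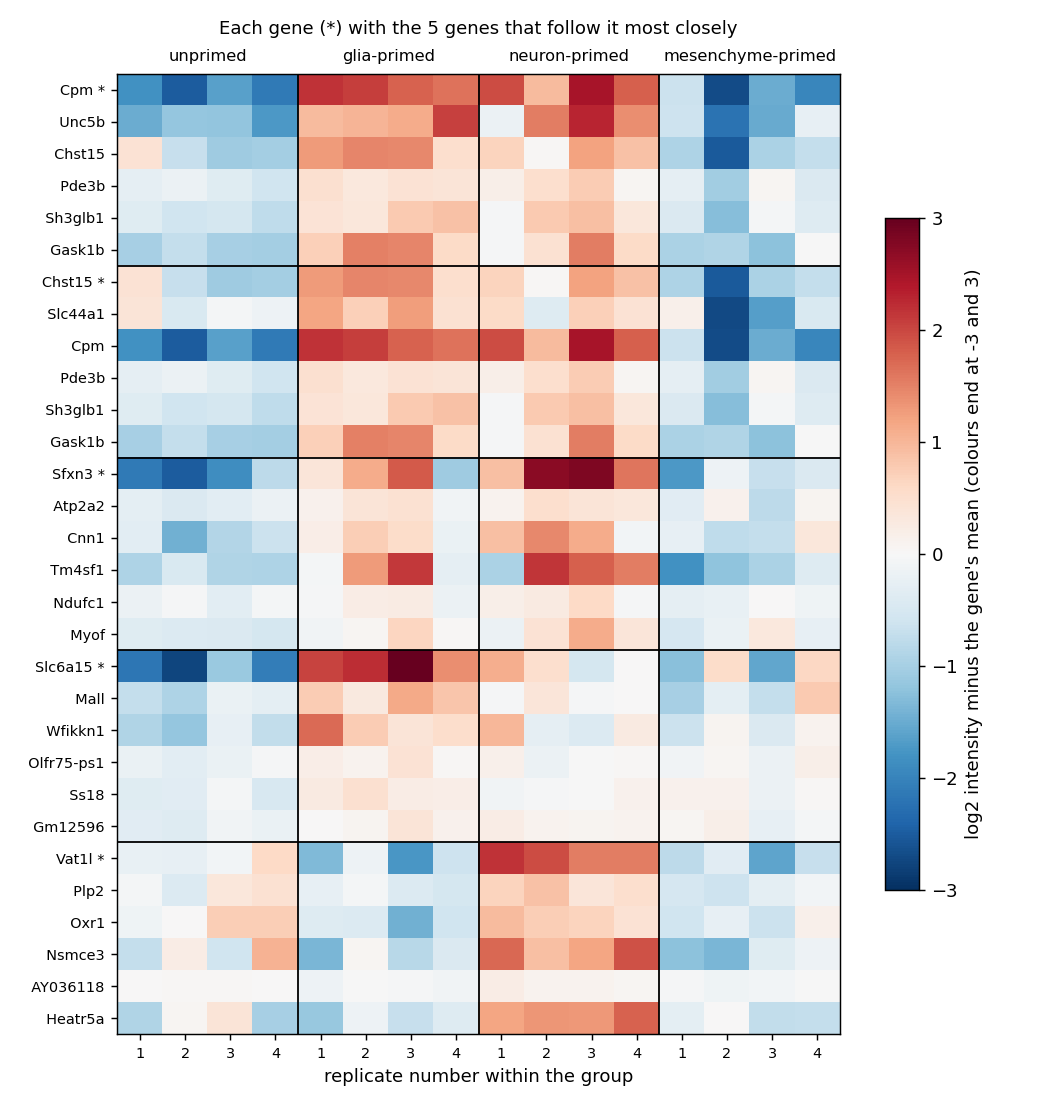
Log2 intensity minus the mean of the gene over 16 arrays (colour) for each of the 5 genes (marked *) and its 5 most similar genes (rows), by replicate within group (columns). The Cpm and Chst15 blocks are red in both neural groups, the Slc6a15 block is reddest in glia-primed arrays, and the Vat1l block is red in neuron-primed arrays.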

How the data were processed

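RNA of 16 samples was measured on Affymetrix arrays. The deposited intensity values were made by the authors with RMA (version not given), per the submitters' processing notes. They run from 1.49 to 31600, so they are on a linear scale, and log2 was taken here with no offset. The arrays' scanner files were left out. The number of arrays limits the precision. Of 45101 probe sets, 34958 had 1 gene symbol, 932 had several and 9211 were unlisted, and the last 2 kinds were left out. Symbols were updated through Entrez identifiers (99.4% matched). Each of 18194 genes was represented by its brightest probe set, of several in 9012 genes.

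One model with a mean per group was fitted to all 16 arrays in R 4.3.3 (limma 3.58.1, functions lmFit and eBayes), two-sided, with Benjamini-Hochberg adjustment over all genes and calls at 0.05. The scripts were tested on simulated data. Tests of the 5 genes in glia-primed against neuron-primed and mesenchyme-primed against unprimed arrays were planned. They are given as a description, since the choice bears on them. The genes named are the 5 genes, any called gene of the 9 lists, and the 5 genes with the highest r for each. Naming the nearest relative in protein sequence was also planned, but no protein table was used here. Further genes were named with their values in view. The members and lists were chosen with earlier results of these data known.

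Alternatives were the replicate number as a block, 3 scalings, an added offset of 16, other probe set choices, dim genes filtered out, other variance settings, array weights, fits of only the groups compared, leaving out each array and, added after seeing the data, the Gapdh 3' to 5' ratio as a covariate. Samples with the same replicate number did not deviate together (r from -0.07 to 0.06 in 24 pairs), so the numbers were not taken as pairs. No 2 arrays held identical values.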

Additional observations from a re-analysis of the deposited data

Results flagged for a closer look

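In 28 groups of 4 arrays (7 probe sets in 4 groups) the most extreme array was looked at with Dixon's ratio, which chance passes in about 5 of 100 groups. In 1 group it passed: mesenchyme-primed replicate 2 had a Chst15 value of 2.86 against 4.43 to 4.66 in the other 3 arrays, a gap of 0.873 of the range; this is above the critical value for 4 arrays.

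For 2 genes all arrays of one primed group lay above the unprimed mean and all arrays of another below it. For Vat1l, glia-primed minus neuron-primed was -2.76 and neuron-primed minus mesenchyme-primed was 2.65. For Chst15, glia-primed minus mesenchyme-primed was 2.45 and neuron-primed minus mesenchyme-primed was 1.97. These differences were not tested, and the genes were chosen with such patterns in view.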

How the results depend on the processing

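Members kept their direction in every alternative run except for Cpm: mesenchyme-primed minus unprimed ran from -0.04 to 0.64 when each array was left out, and glia-primed minus neuron-primed was -0.41 with the mean of all probe sets and -0.17 to 0.34 with an array left out. In mesenchyme-primed against unprimed arrays, no member passed the threshold under any of the 28 alternatives. The choice bears on that comparison, so nothing is read from this. Counts of called genes moved more. In glia-primed against unprimed arrays the 93 calls became 52 with the replicate block, 53 with housekeeping centring, 149 with array weights, 60 with only the groups compared and 30 with the Gapdh covariate, and 25 (without unprimed replicate 4) to 168 (without neuron-primed replicate 1) with an array left out. In neuron-primed against unprimed arrays the 79 calls became 17 with only the groups compared and 33 with the Gapdh covariate, and 31 to 237 with the same arrays left out. For mesenchyme-primed against unprimed the 4 calls became 2 with quantile normalization, 0 with the offset (limma, 1338 at an unadjusted p under 0.05), 1 with trend and robust settings, 9 with array weights, 0 with only the groups compared (1670 unadjusted), 1 with the Gapdh covariate and 0 to 3 with an array left out, with 0 without unprimed replicate 3 or 4 or mesenchyme-primed replicate 2 or 3 (1213 or more unadjusted). For glia-primed against neuron-primed the 2 calls became 0 with only the groups compared (limma, 869 unadjusted) and 2 to 7 with an array left out, 7 being without neuron-primed replicate 1. The added comparison had 161 calls, and 116 (without unprimed replicate 4) to 301 (without neuron-primed replicate 1) with an array left out, and it has no fit of only the groups compared. The cause of these changes was not tested. With the replicate block the other counts were 63, 6, 2 and 128. Only 2 of 16 arrays correlated best with an array of their own number.

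Housekeeping centring moved the median of all genes by 0.23, 0.17, -0.06, 0.07 and 0.23 in the 5 comparisons. Called genes higher and lower were 34 and 59 in glia-primed against unprimed, 35 and 37 with quantile normalization, 39 and 36 with cyclic loess and 37 and 16 with housekeeping centring. In neuron-primed against unprimed they were 24 and 55, 30 and 44 with cyclic loess, and 30 and 26 with housekeeping centring. In the added comparison they were 64 and 97, and 108 and 52 with housekeeping centring. In mesenchyme-primed against unprimed they were 3 and 1, and 2 and 0 with quantile normalization, 3 and 0 with cyclic loess or housekeeping centring. In glia-primed against neuron-primed they were 1 and 1, and 2 and 1 with housekeeping centring. Signal over background was not measured, so differences from a level near the array median are rough.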
